A study of Mus musculus with 7 samples.

Results

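Fatty acids reach the hepatocyte from albumin in the blood or from lipoproteins opened by lipases, cross the plasma membrane and are carried through the cytosol by small binding proteins. The 9 genes described here act along that route: Cd36, Slc27a2 and Slc27a4 at membranes, Vldlr, Lpl and Lipc on lipoproteins, and Fabp1, Fabp2 and Fabp4 inside the cell. They were taken by gene symbol and not by a cut on measured values, but with earlier results of these data known. All 9 were found in tables of 23366 gene rows. All 9 also passed the filter on low counts, which left 11251 genes tested.

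Polyadenylated RNA was sequenced from the livers of mice of the inbred strain C57BL/6, in 4 libraries at 3 months and 3 libraries at 21 months of age. No treatment, allele or diet is named in the labels, and sex, feeding state and hour of sampling are not stated there. The comparison asks how the RNA of old liver differs from that of young adult liver. Whether each library is a different mouse is not stated, and the p-values reflect only library-to-library spread, part of which may be technical.

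The libraries held 4724687 to 11143125 expected counts, the read counts per gene estimated by RSEM. The ribosomal RNA precursor row Rn45s took 18.7% to 25.6% of these by library, which left fewer for other genes. CPM, counts per 1e+06 scaled counts, compare 1 gene between libraries, and TPM, the authors' relative transcript abundance, which also divides by length, compare genes with each other. A count of 3, the most that a count of 0 allows, was 0.257 to 0.607 CPM by library, for counting error only. All 10 hepatocyte markers checked were present, with a median log2 fold change, 21 months minus 3 months, of -0.17. Of all genes tested, edgeR called 5.47% higher and 5.86% lower at an adjusted p under 0.05. Of these 10 markers it called 1 higher and 1 lower, and at an unadjusted p under 0.05 there were 1 higher and 5 lower. Their summed level was 58170 to 71030 CPM at 3 months and 75000 to 79470 CPM at 21 months. That difference came from the albumin gene Alb, which rose from a mean of 36157 to 51818 CPM (edgeR adjusted p = 0.0275). The other 9 summed to 26909 to 29431 CPM at 3 months and to 23396 to 25796 CPM at 21 months, and Apoa1 among them fell from a mean of 6067 to 4164 CPM (edgeR adjusted p = 0.0176). In whole-liver RNA, fewer cells of a type and less RNA per cell cannot be told apart. The effective length lay a median of 34.4 to 38.8 bases below the full length at 3 months, and 35.4, 30.9 and 21.4 bases below it in 21-month replicates 1, 2 and 3. This shortfall, which RSEM derives from read or fragment length, was smaller in old replicates 2 and 3 than in any young library.

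Of the 9 genes, 1 rose and 0 fell at an adjusted p under 0.05 by edgeR's quasi-likelihood test, where 11.3% of all genes tested were called in either direction and 5.47% were called higher. At an unadjusted p under 0.05, 3 were higher and 1 was lower. No share of all genes at an unadjusted p is given here, for these genes, the hepatocyte markers above or the lists below. DESeq2 called 1 higher and 1 lower, against 599 and 534 of all 11251 genes. Limma voom called 1 higher and 0 lower, against 601 and 671. With sample weights it called 2 and 1, against 983 and 1118. The call rate of the 9 genes in edgeR's test, 11.1%, was therefore near the background. The median log2 fold change, 21 months minus 3 months, was 0.14 over the 9 genes and 0.00 over all genes tested. The CPM of the ages did not overlap for 3 of the 9 genes, Cd36, Lipc and Fabp1, against 24.2% of all genes tested.

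**Figure D1:**
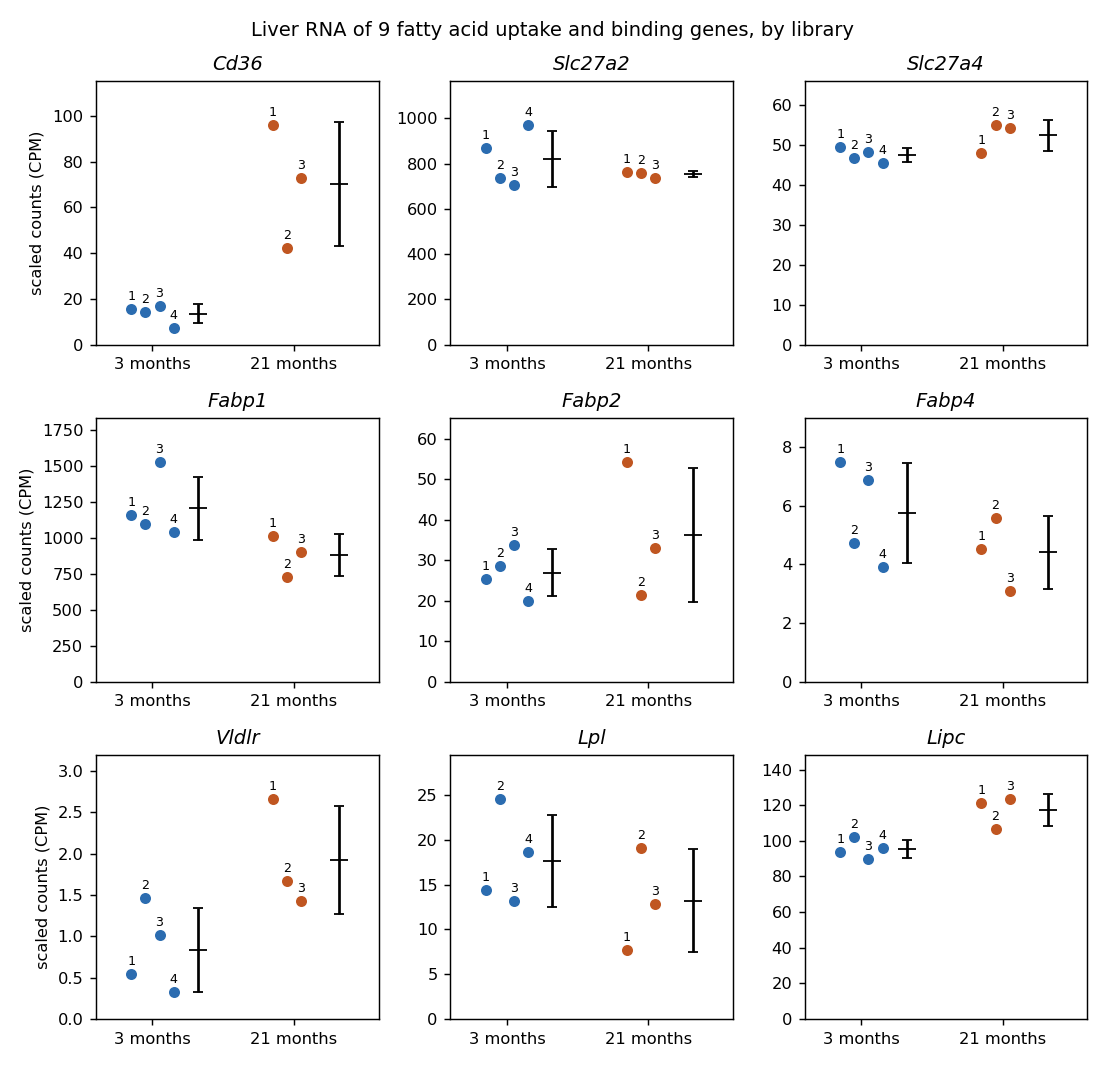
Scaled counts (CPM, linear axes from 0) of each gene in every library, numbered by replicate, with the mean and SD of each age (n = 4 and n = 3) at the right of the points. Every 21-month value of Cd36 lies above every 3-month value, those of Lipc lie just above and those of Fabp1 just below, and the ages overlap in the other 6 panels.

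Per length, the young livers spanned a wide range of levels. Fabp1, the liver fatty acid binding protein, stood at 5206 ± 1225 TPM (SD, n = 4) at 3 months, and Slc27a2, a very long chain acyl-CoA synthetase and fatty acid transporter, at 689 ± 52.6 TPM. Lipc, hepatic lipase, followed at 97.3 ± 9.92 TPM, Fabp2, the intestinal-type binding protein, at 56.7 ± 15.9 TPM and Slc27a4, another member of the same transporter family, at 22.9 ± 2.02 TPM. Fabp4, the binding protein of fat cells and capillaries, stood at 18.5 ± 5.69 TPM, and Lpl, lipoprotein lipase, at 8.49 ± 2.82 TPM. Cd36, the fatty acid translocase, stood at 7.66 ± 2.72 TPM and Vldlr, the very low density lipoprotein receptor, at 0.200 ± 0.131 TPM. The ranges over the 4 libraries overlapped between Slc27a4 and Fabp4, between Fabp4 and Lpl and between Lpl and Cd36. Library by library, Fabp4 was above Lpl in 4 of 4, Slc27a4 above Fabp4 in 3 of 4 and Lpl above Cd36 in 2 of 4. The other neighbours in the order did not overlap.

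In the old livers Cd36 stood at 42.6 ± 14.7 TPM (SD, n = 3), between Fabp2 at 80.7 ± 33.3 TPM and Slc27a4 at 27.6 ± 3.33 TPM. Its range overlapped those of both neighbours; Fabp2 was above it in 3 of 3 libraries, and it was above Slc27a4 in 2 of 3. The order of the other 8 genes was the same at both ages. Fabp1 alone took 81.6% to 88.9% of the summed TPM of the 9 genes at 3 months and 78.0% to 81.6% at 21 months.

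**Figure D2:**
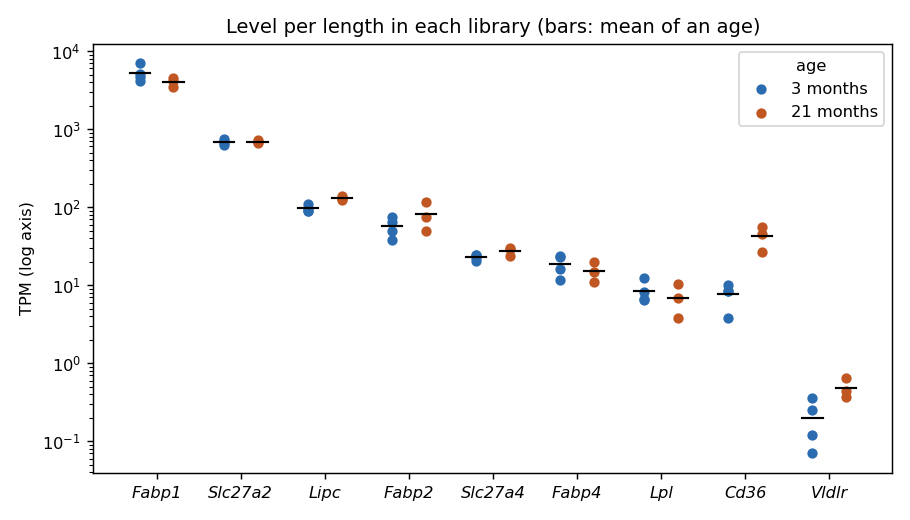
Level per length (TPM, log axis) of each gene in each library at 3 months (blue) and 21 months (orange), with bars at the mean of each age. Genes run from the highest to the lowest mean at 3 months: Fabp1 leads at 5206 TPM, Vldlr is last at 0.200 TPM, and Cd36 goes from 7.66 to 42.6 TPM.

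Cd36 is a surface glycoprotein that binds long-chain fatty acids and modified lipoproteins; its liver level is known to be low in lean young mice, and its gene is a known target of the nuclear receptors PPARG, PXR and LXR. The promoter windows of Cd36 and Fabp1 are shown because these genes had the largest rise and the highest level and because both windows hold a near match to the direct repeat bound by PPAR with RXR. Each is the RefSeq window on GRCm38.p6 from 250 bases before to 50 bases after the gene's start, 5′ to 3′ on the gene's strand. Capitals mark matches to AGGTCANAGGTCA on either strand with at most 2 mismatches in its fixed letters, and to TATAAA with none.
Cd36, chr5:17835847-17836146, minus strand: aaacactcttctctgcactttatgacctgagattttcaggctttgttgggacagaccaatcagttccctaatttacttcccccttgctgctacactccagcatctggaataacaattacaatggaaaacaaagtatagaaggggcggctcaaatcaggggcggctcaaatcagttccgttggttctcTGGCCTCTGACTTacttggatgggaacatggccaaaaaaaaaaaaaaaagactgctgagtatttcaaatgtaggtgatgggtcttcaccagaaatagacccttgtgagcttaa
Fabp1, chr6:71199629-71199928, plus strand: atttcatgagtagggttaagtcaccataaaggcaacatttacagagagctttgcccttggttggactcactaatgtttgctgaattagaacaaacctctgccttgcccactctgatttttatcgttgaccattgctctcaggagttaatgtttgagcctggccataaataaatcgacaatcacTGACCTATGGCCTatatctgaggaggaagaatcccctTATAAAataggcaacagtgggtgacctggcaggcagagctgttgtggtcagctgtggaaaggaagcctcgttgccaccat
In Cd36 the repeat, on the opposite strand, has 2 mismatches and lies from -63 to -51. In Fabp1 it has 1 mismatch and lies from -67 to -55, also on the opposite strand, with TATAAA from -30 to -25. Such a repeat with at most 2 mismatches occurs in 3.86% of 32851 promoter windows of the same length, with at most 1 mismatch in 0.554%, and TATAAA in 13.6%, searched on both strands. Windows were listed for 7 of the 9 genes; 1 of the 2 Lipc windows holds the repeat with 2 mismatches, and those of Slc27a2, Slc27a4, Fabp2 and Vldlr hold none. Of the other motif searched, GTTAATNATTAAC of HNF1, found in 1.36% of windows with at most 2 mismatches, none of the 7 genes had a match. A match is a description of letters only.

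Cd36 stood at 15.7, 14.2, 17.0 and 7.30 CPM in 3-month replicates 1, 2, 3 and 4. In the old livers it stood at 96.0, 42.2 and 72.7 CPM in replicates 1, 2 and 3. The ages did not overlap: the lowest old library was 2.48 times the highest young one, while libraries of 1 age differed by up to 2.33 times at 3 months and 2.28 times at 21 months. The log2 fold change was 2.39 ± 0.36 (SE), a 5.23-fold rise (edgeR adjusted p = 0.0116, n = 4 and n = 3). The call held in the 7 fits that leave out 1 library each, with log2 fold changes from 2.09 to 2.66. With the replicate numbers as pairs the log2 fold change was 2.08 (edgeR adjusted p = 7.7e-05). The pairing was read from these same data and not from the labels, so the smaller p is not independent support. The paired fit also leaves out young replicate 4, the library with the lowest Cd36. With the effective length shortfall as a covariate the log2 fold change was 2.56, but the call was lost (edgeR adjusted p = 0.0619). Fitting the pairing and the covariate together gave 2.39 and passed (edgeR adjusted p = 0.00196). That combined fit was chosen after seeing the data and leaves out young replicate 4. With few libraries for its terms, it does not restore the call.

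Cd36 is also made by fat cells, macrophages and endothelium, so their markers are given beside it. The macrophage list, 11 of 11 detected, summed to 276 to 458 CPM at 3 months and 195 to 509 CPM at 21 months, and 0 of its genes were called by edgeR (1 higher at an unadjusted p under 0.05, 0 by DESeq2 or limma voom). Old replicate 1, with the highest Cd36, had the lowest macrophage sum of the 7 libraries, at 195 CPM, and also the lowest endothelial sum, at 225 CPM. The endothelial list, also 11 of 11 detected, summed to 275 to 432 CPM at 3 months and 225 to 441 CPM at 21 months, with 1 gene called, Lyve1, which was lower. Of 10 fat cell markers, 4 were tested and 0 were called by edgeR, also at an unadjusted p under 0.05, and by DESeq2, while limma voom called 1 higher. That list summed to 59.1 to 79.9 CPM at 3 months and 60.2 to 70.0 CPM at 21 months, most of it from Pnpla2 and Lipe, which liver also makes. Adipoq, the adiponectin gene that defines fat cells, stood at 1.28 CPM in young replicate 1 and 0 in the other 3 young libraries, and at 0.493, 0 and 0.119 CPM in old replicates 1, 2 and 3. Cfd, the adipsin gene, stood at 4.02, 0.343, 0.202 and 0.325 CPM in young replicates 1, 2, 3 and 4 and at 2.96, 2.10 and 2.62 CPM in old replicates 1, 2 and 3. All 3 old values lay above those of young replicates 2, 3 and 4 and below that of young replicate 1 (log2 fold change 1.23, edgeR adjusted p = 0.389), and Cfd was the gene that limma voom called (2.11, adjusted p = 0.0382). Acvr1c, too low to be tested, was at 0 in every young library and at 0.197, 0.140 and 0.238 CPM in the old ones, under the level of 3 counts. The part of these cell types in the Cd36 values was not tested.

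**Figure D3:**
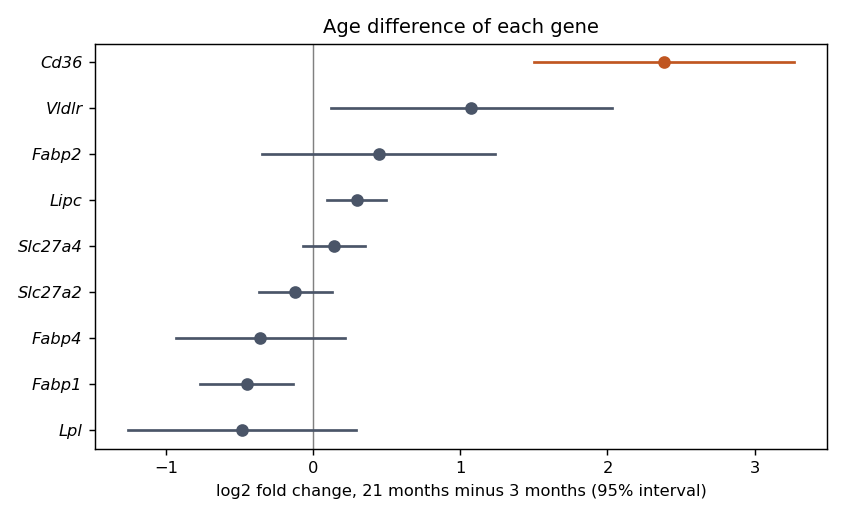
Log2 fold change of each gene, 21 months minus 3 months, with its unadjusted 95% interval from edgeR's quasi-likelihood fit over 7 libraries; orange marks an adjusted p under 0.05. Cd36 lies at 2.39, apart from the other 8 genes, which lie between -0.48 and 1.08; the unadjusted intervals of Fabp1, Lipc and Vldlr leave out 0, but these genes did not pass the adjusted test.

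Slc27a2 and Slc27a4 encode fatty acid transport proteins with acyl-CoA synthetase activity, Slc27a2 chiefly of liver and kidney and Slc27a4 more broadly expressed. Slc27a2 stood at 869, 736, 704 and 970 CPM in 3-month replicates 1, 2, 3 and 4 and at 765, 759 and 738 CPM in 21-month replicates 1, 2 and 3. The 3 old values lay within the young range. Its log2 fold change was -0.12 ± 0.12 (SE), with a 95% interval of -0.37 to 0.13 (edgeR adjusted p = 0.554). On the TPM scale the sign turned, at 0.01 (limma adjusted p = 0.952). Slc27a4 stood at 49.5, 46.7, 48.3 and 45.4 CPM in the young and 47.9, 55.0 and 54.3 CPM in the old libraries. Its log2 fold change was 0.14, with a 95% interval of -0.07 to 0.35 (edgeR adjusted p = 0.392), so these 7 libraries leave room for differences of up to that size in either transporter.

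Fabp1 carries long-chain fatty acids and acyl-CoA in the hepatocyte cytosol, and its gene is a known PPARA target. It stood at 1156, 1094, 1526 and 1040 CPM in 3-month replicates 1, 2, 3 and 4 and at 1013, 728 and 900.5 CPM in 21-month replicates 1, 2 and 3. All 3 old libraries lay below all 4 young ones, the nearest being old replicate 1 at 1013 CPM and young replicate 4 at 1040 CPM. On the TPM scale the ages overlapped. The log2 fold change was -0.45 ± 0.15 (SE), 1.37-fold lower, and did not pass (edgeR adjusted p = 0.0612). It passed with the replicate numbers as pairs (log2 fold change -0.51, edgeR adjusted p = 0.0136), without 21-month replicate 1 (-0.57, edgeR adjusted p = 0.0240) and with DESeq2 (-0.44, adjusted p = 0.0355), limma voom with sample weights or no filter on low counts. It did not pass on the TPM scale (-0.34, limma adjusted p = 0.209), with the effective length shortfall as a covariate (-0.42, edgeR adjusted p = 0.283) or with both that covariate and the pairing (-0.17, edgeR adjusted p = 0.780).

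Fabp2, best known from the enterocyte, was also measured in these livers, at 25.4, 28.7, 33.8 and 20.0 CPM in the young and 54.3, 21.5 and 33.1 CPM in the old libraries. Old replicate 1 was the highest of all 7 and old replicate 2 lay within the young range. The log2 fold change of 0.44 ± 0.33 (SE) did not pass (edgeR adjusted p = 0.457) and was 0.03 without 21-month replicate 1 (edgeR adjusted p = 0.953). Of 9 intestinal epithelium markers, Cdx1, Cdx2, Lct and Krt20 were at 0 in every library and 5 were detected. Lgals4 stood at 2.37 to 2.60 CPM in the young and 3.21 to 3.45 CPM in the old libraries (edgeR adjusted p = 0.280). Alpi reached 2.63 and Vil1 1.21 CPM in young replicate 3, and Sis and Cdh17 stayed at or under 0.419 CPM. The list summed to at most 6.88 CPM, in young replicate 3, the young library with the most Fabp2. In old replicate 1, with the most Fabp2 of all, it summed to 3.45 CPM. The part of intestinal tissue in the Fabp2 values was not tested.

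The libraries of an age stood in the same order for Cd36 and Fabp1. Among the young, replicate 3 was highest for both, followed by replicates 1, 2 and 4; among the old, replicate 1 was highest, followed by replicates 3 and 2. Fabp2 had that same order among the old, and its highest and lowest young libraries were also replicates 3 and 4. Slc27a2 had the opposite extremes among the young, with replicate 4 highest and replicate 3 lowest. Other genes shared an order within 1 age: Lpl with Lipc and Slc27a4 with Fabp4 among the young, and Slc27a4 with Lpl and Slc27a2 with Vldlr among the old. With so few old libraries, some genes had to share an order. Cd36 and Fabp1 thus shared their order within each age but lay on opposite sides between ages, a description of 7 libraries with no test.

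Fabp4 is abundant in fat cells, capillary endothelium and macrophages. It was thinly covered, with 154 counts over the young and 112 over the old libraries. It stood at 7.48, 4.72, 6.88 and 3.90 CPM in the young and 4.53, 5.59 and 3.09 CPM in the old libraries, and the ages overlapped. The log2 fold change of -0.36 ± 0.27 (SE) did not pass, with a 95% interval of -0.93 to 0.22 (edgeR adjusted p = 0.436); it was -0.14 without 21-month replicate 3 and -0.21 without 3-month replicate 1. The part of other cell types in these values was not tested.

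Lpl anchors to capillary walls and splits the triglyceride of passing lipoproteins; adult hepatocytes are known to make little of it, and liver macrophages are a known source. It stood at 14.4, 24.5, 13.1 and 18.7 CPM in 3-month replicates 1, 2, 3 and 4 and at 7.69, 19.1 and 12.8 CPM in 21-month replicates 1, 2 and 3. The ages overlapped, with old replicate 1 lowest and young replicate 2 highest. Its log2 fold change was -0.48 ± 0.33 (SE) and did not pass (edgeR adjusted p = 0.417). It was -0.20 without 21-month replicate 1, -0.25 without 3-month replicate 2 and -0.82 without 21-month replicate 2. Its counts are not whole, so some of its reads were shared with other rows. The summed macrophage markers were 291, 458, 323 and 276 CPM in the same young and 195, 509 and 394 CPM in the same old libraries. Within each age, the library with the most Lpl was also the one with the most macrophage marker RNA, and the old libraries stood in the same order for both. Among the young the order differed. Replicate 4 had more Lpl than replicates 1 and 3 but the lowest marker sum, and replicate 3 had the lowest Lpl but not the lowest sum. The part of macrophages in the values was not tested.

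**Figure D4:**
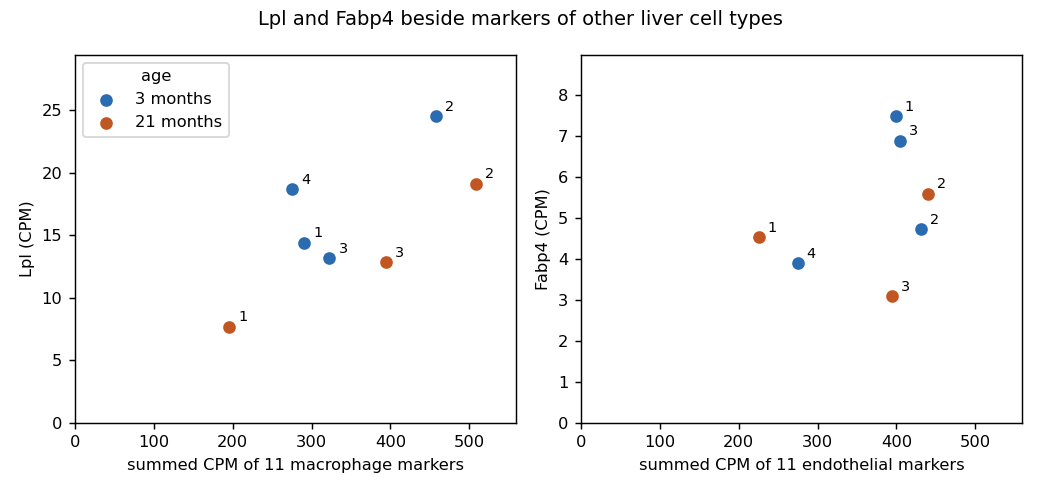
Left, Lpl against the summed CPM of 11 macrophage markers; right, Fabp4 against the summed CPM of 11 endothelial markers, 1 point per library, numbered by replicate and coloured by age, axes from 0. Old replicate 1 has the lowest Lpl (7.69 CPM) and the lowest macrophage sum (195 CPM). Young replicate 4 has the lowest young macrophage sum (276 CPM) but more Lpl (18.7 CPM) than young replicates 1 and 3. Fabp4 is lowest in old replicate 3, at 3.09 CPM.

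Lipc, secreted by hepatocytes, hydrolyses triglyceride and phospholipid of remnant and high density lipoproteins. It stood at 93.4, 102, 89.8 and 96.1 CPM in the young and 121, 107 and 123 CPM in the old libraries. The groups did not overlap, on the CPM or the TPM scale. The log2 fold change of 0.30 ± 0.09 (SE), 1.23-fold higher, did not pass the adjusted test (edgeR adjusted p = 0.0533). It passed without 21-month replicate 2 (0.38, edgeR adjusted p = 0.0280), with relative log expression scaling (0.31, edgeR adjusted p = 0.0489) and on the TPM scale (0.41, limma adjusted p = 0.0307). It also passed with a minimum of 5 CPM, limma voom with sample weights or Rn45s and Lars2 removed. With the replicate numbers as pairs it did not pass (0.30, edgeR adjusted p = 0.0961). Nor did it with DESeq2 (adjusted p = 0.0595) or limma voom (adjusted p = 0.0586). It was farther off with the effective length shortfall as a covariate (0.28, edgeR adjusted p = 0.252) or with that covariate and the pairing (0.25, edgeR adjusted p = 0.676).

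Vldlr binds triglyceride-rich lipoproteins and is known for low levels in liver. It had 3, 17, 5 and 2 counts in 3-month replicates 1, 2, 3 and 4 and 27, 12 and 12 counts in 21-month replicates 1, 2 and 3. In CPM these were 0.547, 1.46, 1.01 and 0.325 in the young and 2.66, 1.68 and 1.43 in the old libraries; young replicates 1 and 4 lay at or under 3 counts. The CPM of young replicate 2 and old replicate 3 overlapped by a small margin, while TPM did not overlap. The log2 fold change of 1.08 ± 0.45 (SE) did not pass (edgeR adjusted p = 0.136), and its 95% interval of 0.12 to 2.03 is wide. At this depth the size of the difference could not be resolved.

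Beside the 9 genes, 71 others of uptake, activation and lipase action were read from 5 lists. Of these, 63 were tested; 5 rose (7.94%, against 5.47% of all genes tested) and 4 fell (6.35%, against 5.86%). Both shares lay near the background, and edgeR's counts for each list below are to be read against the same 5.47% and 5.86%. Of 14 other transporters and binding proteins, 9 were tested and 0 were called by edgeR, DESeq2 or limma voom (2 higher and 1 lower at an unadjusted p under 0.05; 2 lower by limma voom with sample weights, and 1 higher on the TPM scale), with a median log2 fold change of 0.17. Slc27a5, the bile acid-CoA ligase and liver transporter of the same family, stood at 745 ± 40.4 TPM (SD, n = 4) at 3 months, where Slc27a2 was at 689 ± 52.6 TPM, and at 914 ± 89.5 TPM (SD, n = 3) at 21 months, where Slc27a2 was at 695 ± 28.2 TPM. Fabp5, the epidermal binding protein, stood at 19.9 ± 8.95 CPM at 3 months and 9.72 ± 5.35 CPM at 21 months, and its log2 fold change of -1.11 ± 0.51 (SE) did not pass (edgeR adjusted p = 0.236). Fabp6 had no count in any library, and Fabp3 had 3 counts over the young and 4 over the old libraries.

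Of 12 acyl-CoA synthetases, which trap fatty acids as acyl-CoA, 10 were tested, 1 fell and 0 rose by edgeR, with a median log2 fold change of -0.02. At an unadjusted p under 0.05, 1 was higher and 1 lower; limma voom called 0 higher and 1 lower, with or without sample weights, and DESeq2 and limma on the TPM scale called none. Acsl4, which prefers arachidonic acid, fell 1.31-fold (edgeR adjusted p = 0.0453). Acsl1, the main long-chain synthetase of liver, stood at 831 ± 74.7 and 858 ± 75.7 CPM (edgeR adjusted p = 0.837). Of 15 lipase partners and regulators, all tested, 1 rose and 1 fell, with a median log2 fold change of 0.05. Apoe, a ligand of lipoprotein receptors, fell 1.28-fold (edgeR adjusted p = 0.0470) and Pcsk6, a proprotein convertase, rose 1.31-fold (edgeR adjusted p = 0.0482). Gpihbp1, which carries Lpl across capillary cells, stood at 12.1 ± 1.85 and 9.77 ± 2.19 CPM (edgeR adjusted p = 0.319), and Apoc2, the activator of Lpl, at 106 ± 11.8 and 142 ± 42.2 CPM (edgeR adjusted p = 0.140).

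Of 11 lipoprotein receptors and partners, 10 were tested, 1 rose and 2 fell, with a median log2 fold change of -0.05. Sort1, a sorting receptor of lipoproteins and lipases, fell 1.98-fold (edgeR adjusted p = 0.0147), and Lrpap1, the chaperone of Vldlr and its relatives, fell 1.40-fold (edgeR adjusted p = 0.0132). Sdc1, a heparan sulfate proteoglycan that binds remnants, rose 1.32-fold (edgeR adjusted p = 0.0321). Of 19 receptors and cofactors known to act on these genes, all tested, 3 rose and 0 fell by edgeR. Of all genes tested, 5.47% rose and 5.86% fell. The median log2 fold change of the list was 0.08. At an unadjusted p under 0.05, 4 were higher and 2 lower; DESeq2 called 1 higher and 0 lower, limma voom 2 and 0, or 3 and 1 with sample weights, and limma on the TPM scale 1 and 0. Pparg, the fat cell receptor and a known activator of Cd36, stood at 6.18 ± 0.994 CPM at 3 months and rose to 10.00 ± 1.15 CPM, by 0.69 ± 0.18 (SE) on the log2 scale (edgeR adjusted p = 0.0232). The coactivator Ppargc1a rose 1.80-fold (edgeR adjusted p = 0.0348) and the insulin-restrained factor Foxo1 1.33-fold (edgeR adjusted p = 0.0459). Ppara stood at 173 ± 7.91 and 197 ± 16.1 CPM (edgeR adjusted p = 0.214). The other receptors named above for Cd36 were not called. Nr1i2, the gene of PXR, had a log2 fold change of 0.10 (edgeR adjusted p = 0.667). The LXR genes Nr1h3 and Nr1h2 had -0.02 each (edgeR adjusted p = 0.931 and 0.942).

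These 9 calls lay closer to the threshold than that of Cd36, and each was lost without at least 1 library. Apoe was lost without each of the 7 libraries in turn (edgeR adjusted p = 0.0621 to 0.145), and Ppargc1a and Foxo1 without each except 21-month replicate 1 (0.0579 to 0.116 and 0.0580 to 0.140). Leaving out young replicate 2 or 4, or old replicate 2 or 3, ended the call of Pparg (edgeR adjusted p = 0.0588 to 0.0679). Leaving out young replicate 1, 2 or 4, or old replicate 1 or 3, ended that of Sdc1 (edgeR adjusted p = 0.0712 to 0.0914). That of Acsl4 ended without any of young replicates 1, 2 and 3 and old replicates 2 and 3 (edgeR adjusted p = 0.0927 to 0.215), and that of Pcsk6 without any of young replicates 1, 2 and 4 and old replicates 2 and 3 (0.0804 to 0.191). Sort1 and Lrpap1 were lost without 21-month replicate 3 only (edgeR adjusted p = 0.0651 and 0.0881). With the replicate numbers as pairs, Apoe, Pcsk6, Sdc1 and Pparg did not pass (edgeR adjusted p = 0.0533, 0.0653, 0.0530 and 0.0616). With the effective length shortfall as a covariate none of the 9 passed; that of Sort1 was nearest (edgeR adjusted p = 0.0744). DESeq2 did not call Acsl4, Ppargc1a or Foxo1 (adjusted p = 0.0710, 0.0538 and 0.0691), and limma voom did not call Pcsk6 or Foxo1 (adjusted p = 0.0519 and 0.0538). On the TPM scale Acsl4, Apoe, Lrpap1, Ppargc1a and Foxo1 did not pass (limma adjusted p = 0.285, 0.193, 0.104, 0.0536 and 0.0531). With relative log expression scaling Acsl4 and Apoe did not pass (edgeR adjusted p = 0.0512 and 0.0531).

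The genes whose profile over the 7 libraries was closest to that of Cd36, by the root mean square distance between centred log2 CPM among 8760 other genes with a mean of at least 5 CPM, were Vnn1 (0.29), Cyp4a10 (0.33) and Cyp2c38 (0.34). Vnn1, a pantetheinase, stood at 6.75, 8.41, 9.71 and 3.73 CPM in the young and 36.1, 14.1 and 34.5 CPM in the old libraries. Cyp4a10, a fatty acid omega-hydroxylase with close relatives that may share its reads, stood at 50.0, 30.3, 46.5 and 12.8 CPM in the young and 256, 67.3 and 176 CPM in the old libraries. Cyp2c38, a cytochrome P450 of a family whose copies share reads, stood at 8.94, 10.9, 16.8 and 4.71 CPM in the young and 48.8, 24.3 and 33.8 CPM in the old libraries. As for Cd36, young replicate 4 was the lowest of all 7 libraries and old replicate 1 the highest for each of the 3. These 3 genes were picked for closeness to Cd36 over the same 7 libraries. Their shared extremes, their rise and their p-values therefore follow from that choice and are not separate results. Vnn1 and Cyp2c38 passed (edgeR adjusted p = 0.0311 and 0.0384) and Cyp4a10 did not (edgeR adjusted p = 0.0874), though it did with the replicate numbers as pairs (log2 fold change 1.82, edgeR adjusted p = 0.00844). Leaving out any of young replicates 1, 2 and 3 and old replicates 1 and 3 ended the call of Vnn1 (edgeR adjusted p = 0.0564 to 0.0835). Leaving out any of young replicates 1 and 2 and old replicates 1 and 3 ended that of Cyp2c38 (0.0781 to 0.0973). With the effective length shortfall as a covariate neither passed (edgeR adjusted p = 0.146 and 0.115), nor with no filter on low counts (0.0713 and 0.0814). Limma voom did not call Vnn1 (adjusted p = 0.0600), and library size scaling ended the call of Cyp2c38 (edgeR adjusted p = 0.0532). Both passed with DESeq2 (adjusted p = 0.00094 and 0.0035).

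**Figure D5:**
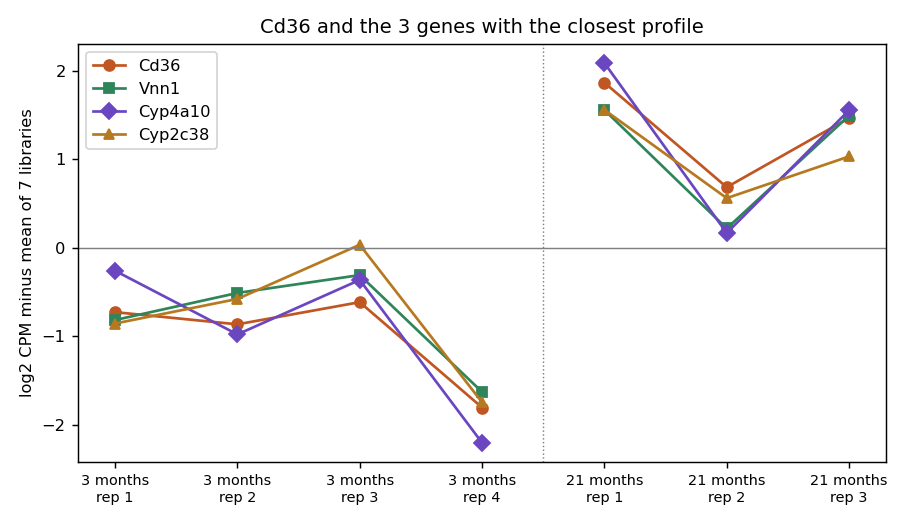
Log2 CPM of Cd36, Vnn1, Cyp4a10 and Cyp2c38 in each library, minus each gene's mean over the 7 libraries; lines only join the points of a gene within an age, and the dotted line parts the ages. In all 4 genes young replicate 4 is lowest and old replicate 1 highest, and old replicate 2 lies below the other old libraries. Vnn1, Cyp4a10 and Cyp2c38 were picked for closeness to Cd36 over these libraries, so the likeness follows from the choice.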

How the data were processed

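Per the labels' protocols, total liver RNA (Trizol, RNeasy) was enriched for mRNA and made into strand-specific libraries amplified by PCR. The submitters' processing notes name TopHat, RSEM, edgeR and mouse build mm9; neither versions nor roles are stated. The authors deposited expected counts, TPM and FPKM per gene and library, with each gene's length and effective length; 86.5% of the expected counts were whole. PCR copies are not independent molecules.

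Expected counts were rounded, kept by filterByExpr (minimum count 10, minimum total 15), scaled by TMM and compared by edgeR's quasi-likelihood test with robust fitting (21 against 3 months, Benjamini-Hochberg adjustment over 11251 genes, threshold 0.05), after a test on simulated data. An SE is the log2 fold change over the root of F, and 95% intervals are unadjusted. TPM were tested as log2(TPM + 1) with limma. R 4.3.3, edgeR 4.0.16, limma 3.58.1, DESeq2 1.42.0, Python 3.11.15 and matplotlib 3.10.9 were used.

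The genes, lists and tests were chosen with earlier results of these data known. Genes named were the 9 genes, up to 4 called genes per list with the smallest adjusted p and, for each of the 9 that was called, its 3 closest profiles; other genes given by value were chosen after their values were seen. Same-numbered libraries deviated together from their group means (r = 0.107, 0.174 and 0.104 for replicates 1, 2 and 3), so the numbers were read as pairs from the data, not from the labels; young replicate 4 and old replicate 1 had r = 0.159. The paired fit leaves out young replicate 4. All 21 pairs of libraries differed by more than counting noise (chi-square per degree of freedom 4.34 to 71.6). Promoter windows are RefSeq's on GRCm38.p6.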

Additional observations from a re-analysis of the deposited data

How the results depend on the processing

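In 19 other settings, 156 of 169 values of the 9 genes kept their direction and side of the threshold, and Cd36 had log2 fold changes of 2.08 to 2.66. Of the 9 genes, 1 was called in the fit reported. The count was 2 with relative log expression scaling, no filter on low counts, a minimum of 5 CPM, DESeq2, log2(TPM + 1), the ribosomal RNA precursor row Rn45s and Lars2 removed or the replicate block, 3 with limma voom with sample weights, 0 with the effective length shortfall as covariate and 1 to 2 without 1 library. The additions were Lipc or Fabp1. Slc27a2 turned to 0.014 on the TPM scale, and Slc27a4 to -0.011 with the replicate block and shortfall together, a fit chosen after seeing the data. Over all genes 1274 were called, 2101 with limma voom with sample weights, 332 with the shortfall, 95 with the block and shortfall together, 1076 with the replicate block, and 580 to 1642 without 1 library. The count fell to 773, 834 and 745 without 3-month replicates 2, 3 and 4 and to 580 without 21-month replicate 3; the cause was not tested. Of the calls, 48.3% were higher, against 74.9% on the TPM scale, where the median log2 fold change was 0.10. FPKM gave Fabp1 the same share as TPM, 84.8% of the summed level at 3 months. Vldlr had no value at a minimum of 5 CPM or without 3-month replicate 2. The block changed no call of the 9 genes other than that of Fabp1. Depth limits Vldlr, which had 3 and 2 counts in 3-month replicates 1 and 4.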
